A study of Arabidopsis thaliana with 19 samples.

Results

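Among the genes measured in sorted cells of Arabidopsis thaliana shoot apices, 26 had their highest signal in the cells marked by the LAS promoter, at 2 times or more the signal of any of 6 other reporter populations. All populations came from ap1-1;cal1-1 double mutant plants aged about 28 days, so every group carried both mutations. The shoot tip of such plants makes masses of meristems in place of flowers. Apices were digested to protoplasts, fluorescent cells were sorted, and their RNA was amplified in 2 rounds and hybridised to Affymetrix ATH1 arrays. The groups were LAS (labelled adaxial, 2 arrays), AtML1 (epidermal, 2 arrays), HMG (epidermal, 3 arrays), HDG4 (subepidermal, 3 arrays), KAN1 (organ circumference, 3 arrays), AtHB8 (xylem, stem, 3 arrays) and S17 (phloem, 3 arrays). A promoter defines each group, so a group holds whatever cells that promoter marks. The labels do not say whether the arrays of a reporter came from separate plants or cultures, so the p-values below measure only the spread between arrays, which may be technical.

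LATERAL SUPPRESSOR (LAS) encodes a nuclear protein of the GRAS family. It is expressed in the narrow boundary between a shoot meristem and its young organs, on the adaxial side of the organ, and its loss leaves leaf axils without axillary meristems. Boundary cells divide slowly and keep organs apart, a role they share with the CUC transcription factors, and they are the place where new branch meristems begin.

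The values are MAS5 signals, a linear brightness per probe set, with a detection call of present, marginal or absent for each array. A gene was taken when its mean LAS signal was at least 200, was at least 2 times the largest mean of the other 6 reporters, and was called present on both LAS arrays. These conditions were applied to the 21021 rows with a locus in the authors' deposited table of averages. Of these, 10118 reached 200 in LAS and were present on both LAS arrays. A further row met the signal and the ratio but was not called present on both LAS arrays. The choice left out 3 loci, 2 of which met all 3 conditions, the LAS gene itself being among the 3. The genes were thus chosen by their LAS signal against the other 6 reporters, and no test of that difference is given. The LAS gene read 5908 and 6038 on the LAS arrays, against 7.82 to 215 (median 99.4) on the 17 arrays of the other reporters. The sorted LAS cells thus carried the RNA that their label names.

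The ratio of the LAS mean to the next highest reporter ran from 2.01 to 12.6 over the 26 genes, with a median of 2.66, and 9 genes reached a ratio of 3. The LAS mean ran from 235 to 13517, with 12 genes under 500 and 7 over 1000. All 26 genes had both LAS arrays above all 17 other arrays, where 1.46% of all rows did; the choice of genes sets this count. Just inside the ratio threshold stood AT5G27330 at 2.01, AT5G64880 at 2.09 and AT3G19500 at 2.10. Just outside it stood LSH4, AT3G12440 and AT2G16360 at 1.99, 1.98 and 1.98. LSH4, a member of the ALOG family that is known as a boundary gene, read 679 and 618 in LAS cells, against 45.0 to 449 (median 125) elsewhere. Of the 26 genes, 12 have a RefSeq gene symbol. By annotated product, 6 are regulators or hormone genes, 4 are receptors or signalling enzymes, and 4 belong to stress responses and metabolism. A further 5 form a mixed group of cell machinery, 2 are plastid-encoded, 2 are a transposase and a pseudogene, and 3 have no clear function.

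**Figure D1:**
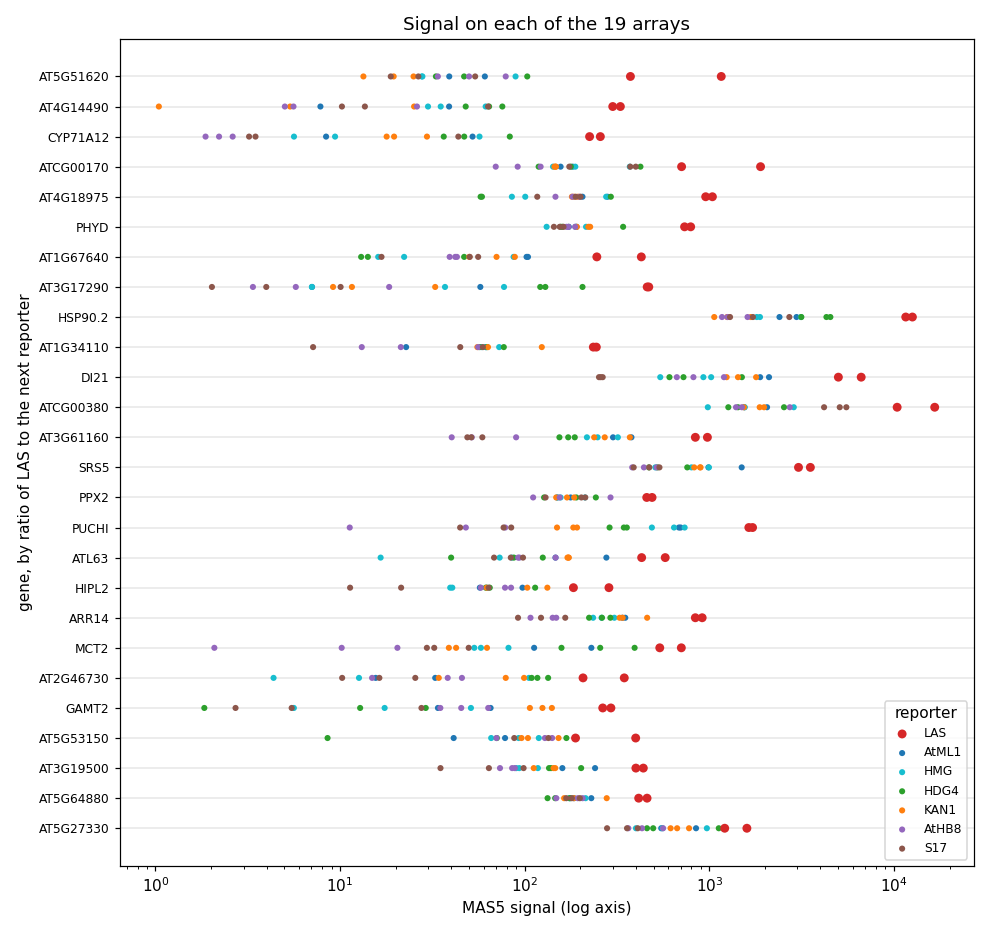
MAS5 signal of each of the 26 genes (rows, ordered by the ratio of LAS to the next reporter) on each of the 19 arrays, on a log axis; large red points are the 2 LAS arrays and small points the arrays of the other 6 reporters. Both LAS points lie right of all others in every row, by a wide margin for AT5G51620 and by almost none for AT5G53150.

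Of the 6 regulators, 4 are annotated as transcription factors. PUCHI is an AP2/ERF transcription factor known for restraining bract growth and promoting floral meristem fate. It read 1637 and 1715 in LAS cells. It read 700 and 684 in AtML1, 735, 644 and 489 in HMG, 344, 357 and 288 in HDG4, and 192, 150 and 183 in KAN1. It was lowest in the vascular reporters, with 78.5, 11.3 and 48.0 in AtHB8 and 76.9, 44.7 and 84.5 in S17. The signal thus stepped down through LAS, the epidermal reporters, HDG4, KAN1 and the vascular reporters with no overlap between those 5 steps, while AtML1 and HMG overlapped, as did AtHB8 and S17. Its relative LEAFY PETIOLE (LEP), another ERF factor, had a LAS mean 0.721 times that of its highest other reporter and was called absent on 1 of the LAS arrays.

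SRS5, a member of the SHI family of zinc finger factors, some of which are known to activate auxin synthesis genes, read 3527 and 3041 in LAS cells. It read 1497 and 989 in AtML1, 995, 801 and 510 in HMG, 828, 891 and 897 in KAN1, and 471, 760 and 524 in HDG4. AtHB8 held 382, 518 and 442 and S17 held 389, 537 and 473. SRS5 was thus present on all 19 arrays, and every reporter but LAS overlapped with at least 1 other. Among its family, STY2 also had its highest mean in LAS, at 1.28 times the next reporter. SRS6 and LRP1 stood at 0.207 and 0.844 times the highest other reporter. SHI and SRS4, at 0.256 and 0.264, were called absent on both LAS arrays.

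ARR14, a type-B response regulator of the class that switches on cytokinin target genes, read 840 and 915 in LAS cells. It read 461, 339 and 327 in KAN1, 338 and 351 in AtML1, 306, 261 and 235 in HMG, and 262, 291 and 223 in HDG4. The vascular reporters stood below, with 142, 108 and 148 in AtHB8 and 92.0, 123 and 166 in S17. The other type-B regulators looked up here, which are not the whole class, were not highest in LAS. ARR1 stood at 0.740 times its highest reporter, ARR10 at 0.413, ARR12 at 0.337 and ARR2 at 0.160. ARR18, at 0.473, and ARR11 were called absent on both LAS arrays.

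AT3G19500, annotated as a basic helix-loop-helix or ethylene-responsive protein, read 439 and 400 in LAS cells, against 34.997 to 241 (median 112) elsewhere, with AtML1 next at 160 and 241. MCT2, an RNA-binding protein related to the C-terminal domain of the meiosis regulator MEI2 of yeast, read 705 and 539 in LAS cells. HDG4 came next with 256, 394 and 158, followed by AtML1 with 230 and 113. HMG had 57.9, 81.7 and 53.3 and KAN1 had 62.5, 42.5 and 38.8, while S17 had 29.5, 32.4 and 49.7 and AtHB8 had 2.09, 10.2 and 20.5. MCT2 was called absent on all arrays of 3 reporters: KAN1, AtHB8 and S17. Its near relative MCT1 read 215 and 151 in LAS cells and had its highest mean, 428, in HDG4.

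GAMT2, an enzyme that methylates gibberellins and so takes part in their inactivation, read 293 and 265 in LAS cells. KAN1 came next with 140, 107 and 125, and it was the sole other reporter with GAMT2 present on all of its arrays. The remaining arrays lay between 1.84 and 65.4.

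Of the receptors and signalling enzymes, phytochrome D (PHYD), a red and far-red light receptor closely related to PHYB, read 735 and 793 in LAS cells, against 131 to 341 (median 173) elsewhere. The other 6 reporters were flat, with their largest mean 1.43 times their smallest. None of the other phytochromes was highest in LAS: PHYA stood at 0.852, PHYB at 0.505, PHYC at 0.958 and PHYE at 0.667 times its highest other reporter. PHYD is known to carry a natural loss-of-function allele in the accession Wassilewskija; the accession behind each line is not given in the sources used here.

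AT1G34110, a leucine-rich repeat receptor-like kinase, read 235 and 244 in LAS cells, against 7.14 to 124 (median 58.4) elsewhere, and was present on no array outside LAS. Its excess over KAN1, the next reporter, is therefore given as a bound, at least 3.14-fold, where the ratio of plain means was 2.97. For such a bound the dimmer side is raised, on each array, to the lowest signal called present there wherever it lies below. The means of log2 values are then compared. Every KAN1 array already lay above that level for this gene. On the log2 scale a bound can lie above or below the ratio of plain means that ranks the genes.

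AT3G61160, the beta member of the shaggy-related (GSK3-like) kinases, relatives of the brassinosteroid regulator BIN2, read 840 and 977 in LAS cells. The vascular reporters held 40.3 to 89.9 and the non-vascular ones 154 to 379, with a gap between them. PPX2, a catalytic subunit of a protein phosphatase of the PP4 type, read 490 and 458 in LAS cells, against 111 to 292 (median 170) elsewhere. Its 6 other means were the most even of the 26 genes, the largest being 1.14 times the smallest. Its close copy PPX1 stood at 0.841 times its highest other reporter in LAS cells.

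HSP90.2 leads the stress and metabolism genes. This cytosolic HSP90 chaperone folds kinases, hormone receptors and immune receptors. It read 11586 and 12589 in LAS cells, against 4309, 4526 and 3151 in HDG4, the next reporter, and 1063 to 3134 on the other 14 arrays. It was present on all 19 arrays. HSP90.1, the heat-induced copy, read 229 and 211 in LAS cells, inside the range of the other reporters' means of 110 (KAN1) to 460 (S17). Its neighbours HSP90.3 and HSP90.4 are near-identical in sequence and have no row of their own in the table, so the HSP90.2 signal may include theirs and is uncertain in that respect.

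DI21, named for its induction by drought, read 6647 and 5001 in LAS cells. AtML1 followed with 2106 and 1885 and KAN1 with 1242, 1793 and 1430. The range was 542 to 1501 over the HMG and HDG4 arrays, 667 to 1201 in AtHB8, and 253 to 265 in S17. CYP71A12, a cytochrome P450 of the camalexin defence pathway, read 225 and 257 in LAS cells, against 1.87 to 83.1 (median 17.9) elsewhere. It was absent on all arrays outside LAS, with a bound of at least 4.53-fold over HDG4 (ratio of plain means 4.34). Its near copy CYP71A13 was called absent in LAS and in all other reporters. AT1G67640, annotated as an amino acid transporter like LHT1, read 246 and 428 in LAS cells, against 13.0 to 104 (median 47.0) elsewhere, at least 3.12-fold above AtML1. LHT1 itself was highest in HMG, its LAS mean being 0.154 times that of HMG.

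The genes grouped as cell machinery held the largest ratio of all, although AT5G51620 and AT4G14490 are described by a family or a domain alone. AT5G51620, a protein of the UPF0172 family, read 1161 and 374 in LAS cells, against 13.4 to 103 (median 33.9) elsewhere, with a ratio of 12.6 to HDG4. The LAS arrays differed by 3.10-fold, yet the lower still lay 3.62 times above the highest other array. AT4G14490, a protein with a phosphopeptide-binding forkhead-associated domain, read 330 and 300 in LAS cells, against 1.04 to 75.7 (median 26.1) elsewhere, with a ratio of 5.03. AT4G18975, a pentatricopeptide repeat protein of the kind that binds organelle RNA, read 956 and 1039 in LAS cells, against 57.7 to 293 (median 185) elsewhere. ATL63, a RING-H2 protein of a ubiquitin ligase family, read 577 and 430 in LAS cells, against 16.6 to 277 (median 93.7) elsewhere. Its bound was at least 2.46-fold above AtML1 (ratio of plain means 2.38), and it was present on no array outside LAS. AT5G53150, a DnaJ domain protein, read 399 and 189 in LAS cells, against 8.56 to 189 (median 96.1) elsewhere. For this last gene the lower LAS array and S17 replicate 3 all but touched, at a ratio of 1.00.

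Both plastid genes had S17 as their next reporter. ATCG00170, which encodes a subunit of the plastid RNA polymerase, read 1895 and 708 in LAS cells. S17 held 373, 174 and 400, and the other 14 arrays ran between 69.7 and 424. ATCG00380, which encodes plastid ribosomal protein S4, read 16626 and 10407 in LAS cells, against 5086, 4184 and 5523 in S17 and 981 to 2867 on the other arrays. By the median, plastid genes as a class were not high in LAS. Over 72 plastid rows the median ratio of LAS to the largest other reporter was 0.637, against 0.675 over all rows. Of the plastid rows 16.7% lay above 1, against 14.1% of all rows. Yet plastid genes made up 7.69% of the 26 genes, against 0.343% of all rows. ATCG01070 had a ratio of 2.10 with a LAS mean of 183, under the signal condition, and ATCG00650 had a ratio of 1.69.

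The transposase and the pseudogene were dim outside LAS. AT3G17290, a transposase of the hAT type, read 461 and 470 in LAS cells, followed by HDG4 with 121, 206 and 129, while all other arrays held 2.02 to 77.3. AT2G46730, annotated as a pseudogene, read 207 and 346 in LAS cells, against 4.36 to 134 (median 34.3) elsewhere, at least 2.23-fold above HDG4. Of the genes without a clear function, HIPL2, a predicted secreted protein named after the hedgehog-interacting protein of animals, read 286 and 184 in LAS cells, against 11.3 to 133 (median 62.3) elsewhere. AT5G64880, of unknown function, read 460 and 414 in LAS cells, against 133 to 278 (median 180) elsewhere. AT5G27330, an unknown protein with a prefoldin domain, read 1598 and 1212 in LAS cells, against 279 to 1125 (median 549) elsewhere.

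**Figure D2:**
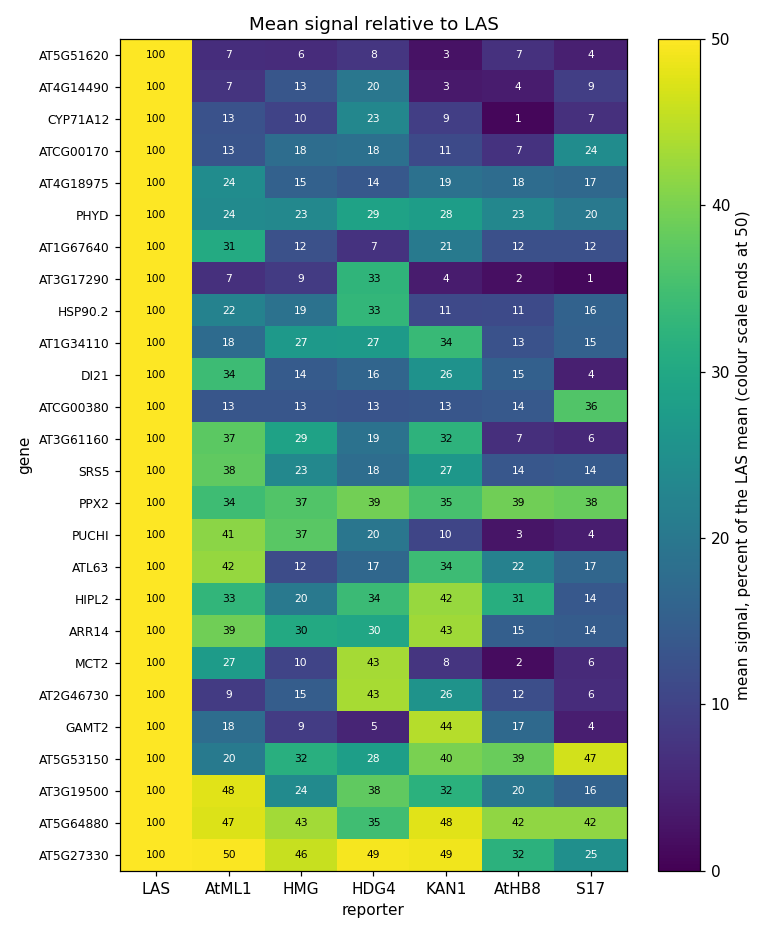
Mean signal of each of the 26 genes in each reporter as a percent of its LAS mean, with a colour scale that ends at 50 because the choice of genes keeps the other reporters at or under it. S17 and AtHB8 hold the lowest percentages for PUCHI, AT3G61160, MCT2 and ARR14, while PPX2 and AT5G64880 are even outside LAS.

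Which reporter came next after LAS differed from gene to gene. AtML1 was next for 9 genes (34.6%), HDG4 for 9 (34.6%), KAN1 for 5 (19.2%) and S17 for 3 (11.5%), while HMG and AtHB8 were next for 0. Over the other 10092 rows with a LAS signal of 200 or more that was present on both LAS arrays, the highest non-LAS reporter was AtML1 for 18.2%, HDG4 for 27.0%, KAN1 for 13.5%, S17 for 13.9%, HMG for 12.5% and AtHB8 for 14.9%. At the other end, S17 was the lowest reporter for 10 of the 26 genes, AtHB8 for 6, HDG4 for 4, KAN1 for 3, AtML1 for 2 and HMG for 1. Over those other rows S17 was the lowest for 31.7%, AtHB8 for 20.9%, HDG4 for 12.0%, KAN1 for 9.66%, AtML1 for 17.6% and HMG for 8.15%. Of the 26 genes, 10 were absent on all arrays of AtML1, 10 on all of S17, 8 on all of KAN1, 8 on all of AtHB8, 6 on all of HMG and 6 on all of HDG4. Over the other rows these shares were 0.684% for AtML1, 1.58% for S17, 0.149% for KAN1, 1.21% for AtHB8, 0.149% for HMG and 0.277% for HDG4; the choice of genes, which sets a ceiling outside LAS, bears on these counts. Of the 26 genes, 8 were present on all 17 arrays outside LAS, 10 were absent on all arrays of at least 3 other reporters, and 3 (CYP71A12, AT1G34110 and ATL63) were present on none.

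The LAS arrays agreed on most of these genes. The higher LAS array was a median 1.15 times the lower over the 26 genes, against 1.18 over the other 10092 rows. The arrays lay within 1.5-fold for 19 of the 26 genes (73.1%) and for 87.5% of those rows. The widest gaps belonged to AT5G51620 (3.10-fold), ATCG00170 (2.68-fold) and AT5G53150 (2.12-fold), all higher on LAS replicate 1. Between AT1G67640 (1.74-fold) and HIPL2 (1.56-fold) lay AT2G46730 (1.67-fold) and ATCG00380 (1.60-fold). The 3′ to 5′ signal ratio of the actin control was 17.7 on LAS replicate 1 and 7.54 on LAS replicate 2, against 4.44 to 19.7 (median 11.0) on the other arrays; its part in these gaps was not tested. Of the 26 genes, 19 met the ratio and signal conditions on each LAS array taken alone. On LAS replicate 2 alone AT3G19500, AT5G27330, AT5G53150, AT5G64880, HIPL2 and MCT2 did not, and on LAS replicate 1 alone AT2G46730 did not.

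**Figure D3:**
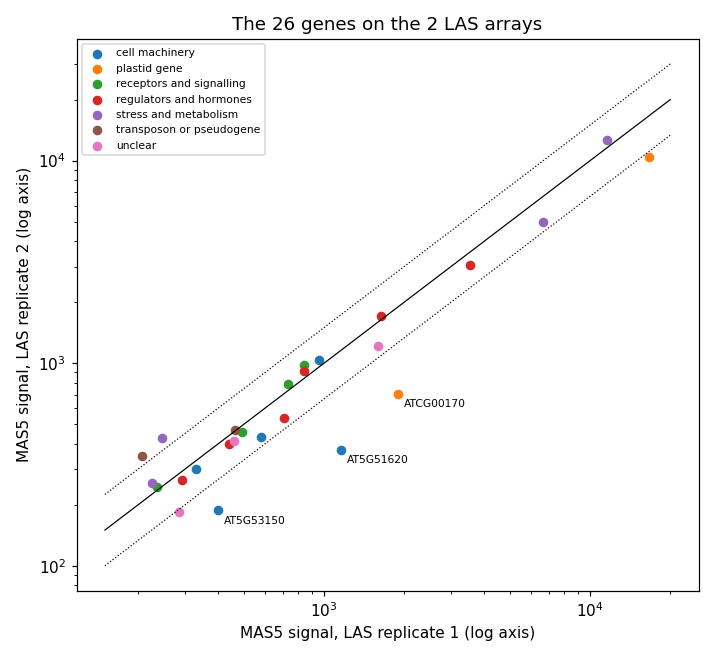
MAS5 signal of the 26 genes on LAS replicate 1 (x axis) and LAS replicate 2 (y axis), both log axes, coloured by annotated role; the solid line marks equal signals and the dotted lines a 1.5-fold difference. AT5G51620, ATCG00170 and AT5G53150 fall farthest below the line, with replicate 1 the higher.

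Levels among the other 6 reporters were compared on their 17 arrays, without the LAS arrays. The largest of these 6 means set the ceiling in the choice of genes, so the comparisons are not free of that choice, and the counts and medians over the genes are descriptions. Tests were made with limma on log2(signal + 1), with Benjamini-Hochberg adjustment over the 15035 probe sets tested, and a probe set entered when its signal reached the 40th percentile of its array on all arrays of at least 1 of the 6 reporters. Of the 26 genes, 21 passed this filter; AT5G51620, AT4G14490, CYP71A12, AT1G34110 and HIPL2 were too dim outside LAS. The moderated F test for any difference, at an adjusted p below 0.05 with no fold minimum, called 14 of the 21 genes, where 75.0% of all probe sets tested were called. In bulk samples of this kind, fewer cells of a type and less RNA per cell cannot be told apart.

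In the vascular reporters (AtHB8 and S17) 6 of the 21 genes fell and 0 rose, relative to the non-vascular ones (AtML1, HMG, HDG4 and KAN1), by limma, where a call in this and the following comparisons required an adjusted p below 0.05 together with a difference of 2-fold or more. Of all probe sets tested 27.8% were called, which is 12.6% lower and 15.3% higher. At an unadjusted p under 0.05, 10 of the 21 were lower and 1, ATCG00380, was higher. The median log2 difference of the 21 genes was −0.68, against −0.12 over all probe sets, and 17 of the 21 lay below 0, against 56.1% of all probe sets. PUCHI fell most, with 11.3 to 84.5 (median 62.4) in the vascular arrays, against 150 to 735 (median 357) in the non-vascular arrays. The groups did not overlap, and the difference was −3.002 ± 0.301 (log2, SE), with limma adjusted p = 7.78e-07. No AtHB8 array called PUCHI present, so its fold is a bound of at least 7.29-fold lower.

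AT3G61160, the shaggy-related kinase, held 40.3 to 89.9 (median 51.5) in the vascular arrays, against 154 to 379 (median 248) in the non-vascular arrays. It was 4.58-fold lower (−2.20 ± 0.16, limma adjusted p = 3.36e-08) with no overlap. It was called present on 2 of the 3 AtHB8 arrays and 1 of the 3 S17 arrays, so this fold rests partly on signals not called present. ARR14, the cytokinin response regulator, held 92.0 to 166 (median 132) in the vascular arrays, against 223 to 461 (median 306) in the non-vascular arrays, also without overlap, and was 2.39-fold lower (−1.26 ± 0.14, limma adjusted p = 1.68e-06). PUCHI, AT3G61160 and ARR14 were thus higher on all 11 non-vascular arrays than on any of the 6 vascular arrays.

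The other 3 genes that fell overlapped between the groups. MCT2 held 2.09 to 49.7 in the vascular arrays, against 38.8 to 394 in the non-vascular arrays, a difference of −2.53 ± 0.34 with limma adjusted p = 1.58e-05. Because it was absent on every vascular array, its fold is a bound of at least 3.16-fold. DI21 held 253 to 1201 in the vascular arrays, against 542 to 2106 in the non-vascular arrays, and was 2.52-fold lower (−1.33 ± 0.20, limma adjusted p = 4.30e-05). The transposase AT3G17290 held 2.02 to 18.5 in the vascular arrays, against 7.04 to 206 in the non-vascular arrays, a difference of −2.37 ± 0.55 (limma adjusted p = 0.00151), with a bound of at least 1.24-fold.

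Further genes passed the p threshold without reaching 2-fold. SRS5 differed by −0.85, HSP90.2 by −0.59, AT5G27330 by −0.73 and AT3G19500 by −0.999, which is just under 2-fold. AT3G19500 passed 2-fold with quantile normalization (−1.14) and on leaving out any of 10 single arrays, and without HMG replicate 2 AT2G46730 was called as well (−1.16, adjusted p = 0.0267). ATCG00380 was the sole gene of the 21 to differ upward with an adjusted p under the threshold, at 0.79 ± 0.23 (limma adjusted p = 0.00730). The remaining 10 genes, PHYD and PPX2 among them, had adjusted p-values of 0.120 or more.

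**Figure D4:**
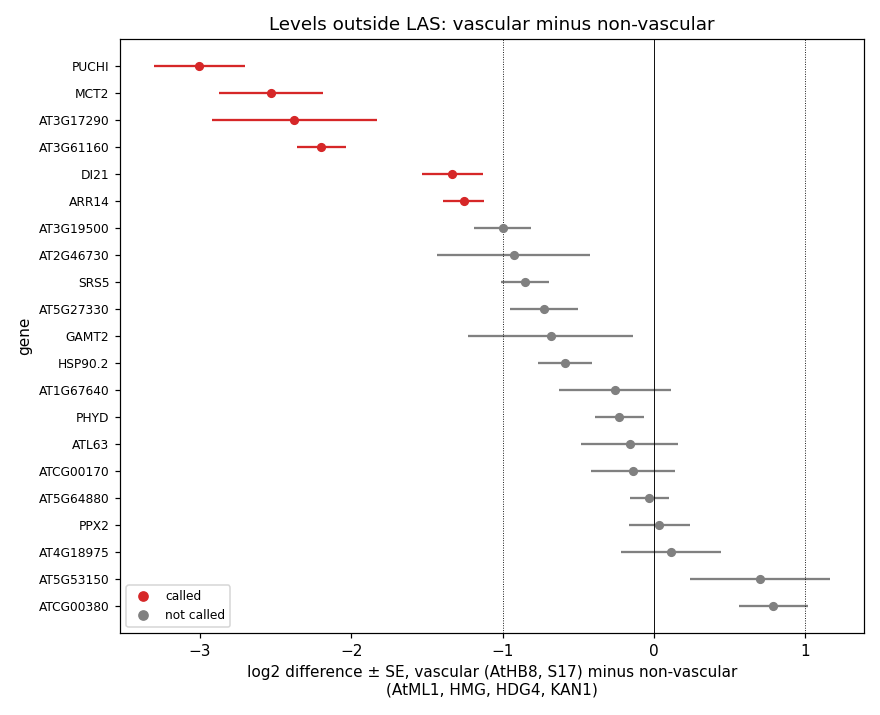
Log2 difference ± SE (limma, 17 arrays) between the vascular (AtHB8, S17) and the non-vascular reporters (AtML1, HMG, HDG4, KAN1) for the 21 of 26 genes tested; red points were called, and the dotted lines mark 2-fold. The 6 called genes all lie left of −1, from PUCHI at −3.002 to ARR14 at −1.26.

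Between the xylem and the phloem reporter, AtHB8 and S17, 4 of the 21 genes were called by limma, 1 higher and 3 lower in AtHB8, where 8.67% of all probe sets were called (4.19% higher, 4.48% lower). DI21 held 820, 667 and 1201 in AtHB8, against 265, 253 and 258 in S17. It was 3.35-fold higher (1.75 ± 0.32, limma adjusted p = 0.00226). Both plastid genes fell. ATCG00170 held 69.7, 91.6 and 122 in AtHB8, against 373, 174 and 400 in S17, and was 3.20-fold lower (−1.68 ± 0.44, limma adjusted p = 0.0203). ATCG00380 held 1500, 1395 and 2729 in AtHB8, against 5086, 4184 and 5523 in S17, and was 2.74-fold lower (−1.45 ± 0.36, limma adjusted p = 0.0153). MCT2 fell by 2.04 on the log2 scale (limma adjusted p = 0.0221) but was absent on all arrays of both reporters, so no fold is given. The calls of the 3 lower genes each rested on single arrays: without AtHB8 replicate 1 their limma adjusted p-values were 0.0781 for ATCG00170, 0.0588 for ATCG00380 and 0.0746 for MCT2, and without S17 replicate 3 they were 0.0790, 0.0537 and 0.0810. Leaving out AtHB8 replicate 2 also ended the calls of ATCG00170 (0.0562) and ATCG00380 (0.0647), and leaving out S17 replicate 1 that of ATCG00170 (0.0762). GAMT2 was called higher in AtHB8 with a pseudocount of 16 (1.27, adjusted p = 0.0411) and without HDG4 replicate 1 (2.43, adjusted p = 0.0404). Leaving out S17 replicate 3 gave the call as well (3.28, adjusted p = 0.0289). GAMT2 was dim in both reporters, averaging 47.9 in AtHB8 and 11.9 in S17. It was called present on 1 AtHB8 array and 0 S17 arrays.

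In the subepidermal HDG4 reporter, relative to the epidermal AtML1 and HMG, 2 of the 21 genes rose and 0 fell by limma, where 9.76% of all probe sets were called (4.02% higher, 5.75% lower). At an unadjusted p under 0.05, 4 genes were higher and 4 were lower. AT3G17290 held 121, 206 and 129 in HDG4, against 57.5 and 7.05 in AtML1 and 7.04, 37.0 and 77.3 in HMG. It was at least 4.20-fold higher (2.57 ± 0.79, limma adjusted p = 0.0330). AT2G46730 held 109, 134 and 117 in HDG4, against 4.36 to 106 in the epidermal arrays, and differed by 2.48 (limma adjusted p = 0.0277), but HDG4 called it absent on all arrays, so no fold is given. Both calls ended without AtML1 replicate 3 (adjusted p = 0.142 and 0.0971) and without HDG4 replicate 1 (0.0596 and 0.0576), replicate 3 (0.118 and 0.0876) or replicate 4 (0.0640 and 0.0624), AT3G17290 being given first. Other genes were called on leaving out single arrays: MCT2 higher without AtHB8 replicate 1 or 3 (1.31), AT1G67640 lower without HDG4 replicate 3 (−2.003) or HMG replicate 1 (−1.66), and AT4G18975 lower without HDG4 replicate 4 (−1.61).

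In KAN1 cells 1 of the 21 genes fell relative to the epidermal reporters and 0 rose, by limma, where 8.98% of all probe sets were called (6.39% higher, 2.59% lower). At an unadjusted p under 0.05, 2 genes were higher and 3 were lower. PUCHI held 192, 150 and 183 in KAN1, against 700 and 684 in AtML1 and 735, 644 and 489 in HMG. It was 3.73-fold lower (−1.90 ± 0.43, limma adjusted p = 0.00746), with no overlap. Leaving out single arrays added calls. Without AtHB8 replicate 1 MCT2 also fell, by 1.09 (adjusted p = 0.0426), and without KAN1 replicate 1 HSP90.2 also fell, by 1.07 (adjusted p = 0.0277). GAMT2 rose by 2.06 without HDG4 replicate 1 (adjusted p = 0.0455), and by 2.43 without HMG replicate 1 (adjusted p = 0.0395), where AT2G46730 rose as well, by 2.20 (adjusted p = 0.00605).

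The label of the LAS cells was set against lists of genes that mark cell types, none of which holds any of the 26 genes. For these lists LAS was compared with the equally weighted mean of the other 6 reporters on all 19 arrays, by limma over 15161 probe sets, of which 10.5% were called (3.49% higher, 7.02% lower), with a median log2 difference of 0.08. Of the organ boundary and axillary meristem genes, 7 of 17 tested rose and 0 fell, with a median of 1.21. At an unadjusted p under 0.05, 12 were higher and 0 were lower. The genes tested but not called, KNAT6 excepted, had a higher mean in another reporter than in LAS. CUC1 averaged 112 in LAS and 391 in HDG4, and CUC2 209 and 387. LOF1 averaged 568 in LAS and 881 in HMG, BOP2 695 and 1128 in HMG, and BOP1 257 and 701 in AtML1. Of the 20 listed genes with a row, 4 (LOF2, RAX3, RBE and EXB1) were absent on both LAS arrays. JLO, a lateral organ boundary domain factor, rose by 2.70 (289 and 666 in LAS, at least 4.76-fold), and CUC3, a boundary NAC factor, by 2.36 (984 and 1533 in LAS, at least 4.99-fold). LSH4 was 4.44-fold and HAN 3.54-fold higher, and DPA4 was at least 3.11-fold, RAX1, a MYB factor of axillary meristems, at least 2.49-fold and ATH1 at least 2.31-fold higher. The limma adjusted p-values of the 7 lay between 0.000122 and 0.0103. These are differences from a mean over reporters: ATH1 averaged 309 in LAS and 526 in HMG, RAX1 145 in LAS and 169 in HMG, and JLO 478 in LAS and 469 in AtML1. Without LAS replicate 1 the boundary genes called were 5, without LAS replicate 2 they were CUC3, LSH4 and HAN alone, and with AtHB8 and S17 left out of the mean LSH4 and HAN alone.

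The label of the LAS cells is adaxial, and the adaxial genes went both ways. Of 10 adaxial genes tested 0 rose by limma, with a median of 0.09, and at an unadjusted p under 0.05, 3 were higher and 2 lower. The HD-ZIP III factor PHB fell by 1.09 (limma adjusted p = 0.0200), a call that ended without LAS replicate 1. It also ended with AtHB8 and S17 left out of the mean (−0.61, adjusted p = 0.306), PHB having its highest mean, 5842, in AtHB8. CNA, another HD-ZIP III factor, stood at −0.79 (adjusted p = 0.00898) and SGS3 at 0.54 (adjusted p = 0.00963), both under 2-fold. In the abaxial list 0 of 7 genes rose by limma, 0 at an unadjusted p under 0.05 as well, and FIL fell by 1.22 (limma adjusted p = 0.00967), a call that ended without LAS replicate 2. Of 11 epidermal genes 9 rose and 0 fell by limma (10 and 0 at an unadjusted p under 0.05), with a median of 1.46, PDF2 (at least 4.16-fold) and FDH (3.21-fold) among them; ATML1 read 2471 and 3889 in LAS cells, below its mean of 8595 in HMG. With AtHB8 and S17 left out of the mean, 0 of those 9 were called and 6 turned below 0. In the vascular list 9 of 16 genes fell and 0 rose by limma (9 and 0 at an unadjusted p under 0.05), with a median of −1.30. ATHB8, which averaged 5.34 in LAS and 9303 in AtHB8, was among these 9, and ATML1 was among the 9 epidermal genes called. Promoters of these genes define the AtHB8 and AtML1 groups, so the sorting itself bears on both differences. BAM3 was at least 12.0-fold lower and SEOR1 at least 6.60-fold lower, both absent on the LAS arrays, and 9 of the 16 were absent on both LAS arrays. Without LAS replicate 1, 5 of those 9 were called, and without LAS replicate 2, 4 were, SEOR1 not among them. The call of PDF2 also ended without LAS replicate 2. With AtHB8 and S17 left out of the mean, BAM3 and SEOR1 were the vascular genes still called.

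Of 13 meristem genes, ULT1 rose by 1.42 and PNF by 1.31 while KNAT1 fell by 1.75. Of 9 cell division genes, 3 rose (PCNA2, MCM2 and PCNA1) and 0 fell by limma, with 8 higher and 0 lower at an unadjusted p under 0.05. In the auxin list 1 of 11 genes rose, the auxin synthesis gene YUC4, and 4 fell, the response genes IAA2, GH3.3 and IAA19 and the transporter gene LAX1. In the cytokinin list 1 of 10 rose, the response regulator ARR7, and 1 fell, LOG4. These too are differences from a mean over reporters. ULT1 averaged 3317 in LAS and 4222 in HDG4, and PNF 1772 in LAS and 2133 in HMG. PCNA1 averaged 6364 in LAS and 8300 in AtML1, and PCNA2 4035 in LAS and 4067 in HDG4. ARR7 averaged 2733 in LAS and 2905 in AtML1. MCM2 and YUC4 had their highest means in LAS, at 1825 and 801, against 1809 and 751 in HDG4, the next reporter. The call of YUC4 ended without either LAS array, those of ARR7 and GH3.3 without LAS replicate 2, and that of PCNA1 without AtML1 replicate 3. With AtHB8 and S17 left out of the mean, IAA2, LAX1 and LOG4 alone of the auxin, cytokinin, meristem and cell division genes were still called.

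Stress and wounding genes bear on HSP90.2, DI21 and CYP71A12, since protoplasts had been made from all samples. Of 18 such genes 0 rose in LAS cells and 5 fell by limma (0 and 10 at an unadjusted p under 0.05), with a median of −0.58. The differences were −2.27 for HSP70, −1.68 for LOX3, −1.64 for LOX2, −1.37 for AOS and −1.11 for OPR3. The call of LOX2 ended without LAS replicate 1, as did that of AOS, and that of OPR3 without LAS replicate 2. With AtHB8 and S17 left out of the mean, LOX2 and LOX3 were still called. The summed signal of the list was 104171 and 83848 on the LAS arrays, against 86219 to 217923 (median 124089) on the other arrays. The part of stress in the levels of HSP90.2, DI21 and CYP71A12 was not tested.

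**Figure D5:**
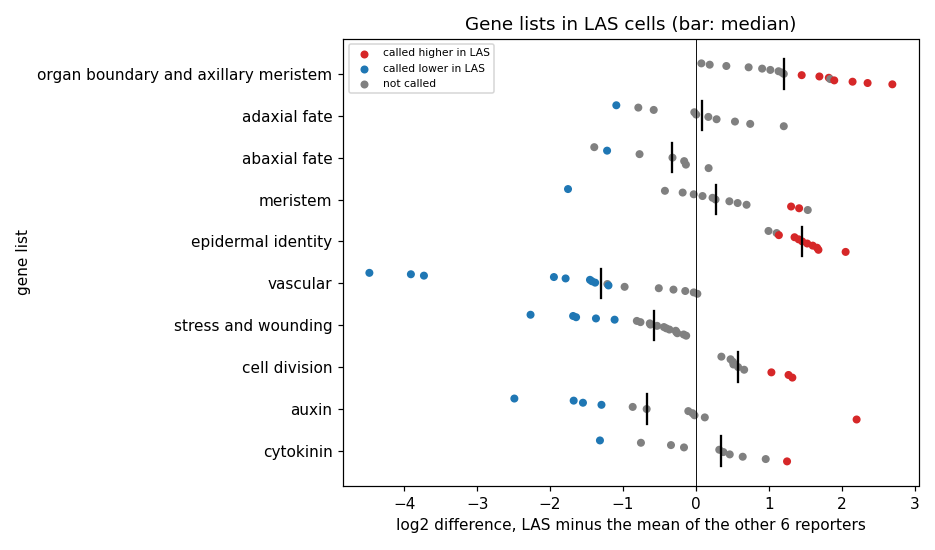
Log2 difference between LAS and the mean of the other 6 reporters (limma, 19 arrays) for each tested gene of 10 marker lists, with the list median as a black bar; red points were called higher in LAS, blue points lower. Organ boundary and epidermal genes lie mostly right of 0 and vascular genes left of it, while the adaxial list is centred near 0.09.

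Positions were read from the locus numbers, which follow gene order along each chromosome. Chromosome 5 held 11 of the 26 genes (42.3%, against 22.9% of all rows), chromosome 4 held 4, chromosomes 1, 2 and 3 held 3 each, and the plastid genome held 2. Between loci AT5G51000 and AT5G65000 lay 8 of the 26 (30.8%), against 6.30% of the 10118 rows present at 200 or more in LAS. All 4 genes of chromosome 4, namely AT4G14490, DI21, PHYD and AT4G18975, lay between AT4G14000 and AT4G19000 (15.4% of the 26, against 2.04% of those rows). Both stretches together held 12 genes (46.2%, against 8.33%), and their limits were chosen after the positions were seen, so no test is given. Of the 45 rows with a ratio between 1.5 and 2, 7 (15.6%) lay in these stretches. Another 44 rows had a LAS signal at or below 0.5 times the smallest other mean, that mean being 200 or more. These rows were present on all arrays of the other 6 reporters, and 9 (20.5%) lay in the stretches. Their filter differs from the one behind the 8.33%. Of all 21021 rows, 5.75% lay in the chromosome 5 stretch and 2.15% in the chromosome 4 stretch. Of the 26 genes, 22 were found among the RefSeq protein-coding genes. The nearest neighbours of these, HSP90.2 and GAMT2, had 27 protein-coding genes between them.

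Outside LAS the genes also differed in how even they were. In 5 genes (AT4G18975, PHYD, PPX2, AT5G64880 and AT5G27330) the largest of the 6 other means was under 2 times the smallest. Of these 5, 4 lay in the stretches, as did 12 of all 26 genes. The limits of the stretches were chosen after these genes' positions were seen, so this count is a description. The share of other rows under 2 was not taken. Over all 26 genes this ratio had a median of 3.13, against 2.09 over the other 10092 rows, and it was under 1.5 for 3 genes (11.5%), against 13.1% of those rows.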

How the data were processed

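RNA of 7 sorted reporter populations was measured on 19 ATH1 arrays. The deposited intensity values are linear MAS5 signals per probe set, made by the authors with MAS5, per the submitters' processing notes; the MAS5 version, scaling settings and probe annotation build are not given in the sources used here. Each array's mean after trimming 2% at either end was 500, and the authors' deposited averages lay within 0.005 of the means of the arrays. Array medians ran from 152 to 183, replicate arrays correlated at 0.938 for LAS and at 0.927 to 0.955 in the 16 other pairs, and the lowest signal called present was 15.1 to 37.4. The number of arrays limits the precision. Scan dates were not used here.

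Genes were chosen by the stated conditions, and the members and lists were chosen with earlier results of these data known. Tests used limma 3.58.1 in R 4.3.3, two-sided, on log2(signal + 1), a pseudocount of 1 that shrinks differences of dim genes. Each reporter had a mean of its own, with 11 residual and 3.14 prior degrees of freedom on 17 arrays, and 12 and 3.06 on 19. Folds are ratios of geometric means. Adjusted p-values in the text come from limma. The named genes were the 15 highest ratios, the 10 highest LAS signals, the regulators, receptors and hormone genes, the called genes and those nearest the threshold. ATL63, HIPL2 and AT5G53150 fall outside that rule and are given so that every gene is accounted for. Family relatives were picked after the values were seen. On simulated data for HDG4 against the epidermal reporters (15035 probe sets), 77% of changes of 1.5 and 96% of changes of 3 (log2) were recovered. Alternatives were another pseudocount, filter, normalization, a replicate block and leaving out each array.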

Additional observations from a re-analysis of the deposited data

How the results depend on the processing

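The number of genes chosen moved to 71 at a ratio of 1.5, to 9 at a ratio of 3 and to 15 when LAS had to reach 2 times the highest other array. Leaving out each array gave 24 to 36 genes, the 36 without LAS replicate 2. The F test called 7 genes with a 60th percentile filter, which left fewer than 21 to test, and 11 to 15 leaving out arrays. With the 60th percentile filter neither AT3G17290 nor AT2G46730 was tested, and the HDG4 comparison made 0 calls. It made 0 calls without a filter and 1 with the replicate block (0 to 3 leaving out arrays). That 1 was AT4G18975, lower in HDG4 (−1.61), both reported calls having ended under the block (adjusted p = 0.0964 for AT3G17290 and 0.0756 for AT2G46730). In the KAN1 comparison the calls were 2 with a pseudocount of 16 (1 to 3 leaving out arrays). Between AtHB8 and S17 they were 2 with the 60th percentile filter (1 to 5 leaving out arrays), and in the vascular comparison 6 to 8 leaving out arrays. Same-numbered arrays did not deviate together as a set (46 pairs, median correlation −0.00238, 1 pair over 0.1). Differently numbered arrays gave a median of 0.00031 (108 pairs, 0 over 0.1). Such correlations cannot settle whether same-numbered arrays were handled together, so pairing by number remains undecided. The block moved no other count of calls by over 1.5 times.

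Without AtHB8 and S17 in the mean, the LAS comparison called 542 probe sets in place of 1594 (1087 to 1664 leaving out arrays) and 2 boundary genes (3 to 10 leaving out arrays). ATML1 then stood at −0.033, ACR4 at −0.22, FDH at −0.13, LTP1 at −0.21, HTH at −0.13, BDG1 at −0.38 and PXY at 0.89; the cause was not tested. Signal over background limits the dim genes, 5 of which could not be tested outside LAS. Leaving arrays out of the other reporters in choosing the genes was added after the data were seen.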
